A study of Mus musculus with 20 samples.

Results

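Interferon-stimulated genes, the transcripts that cells switch on when an interferon reaches its receptor, were followed as a set of 39 named genes in cultured fibroblasts from pancreatic cancer. The 39 were taken by symbol, as well-known members of the response, from a table of 32285 genes. Values were read for 37 of them, while Mx1 and Mx2, which encode antiviral GTPases, were not analysed here. The cells were immortalised primary murine cancer-associated fibroblasts (CAFs), sequenced in 20 libraries, 5 in each of 4 groups, after 32 h of treatment, and every group, also those without EIPA, received DMSO. The first group was kept in 0.2 mM glutamine with 25 uM EIPA (called EIPA here), an amiloride derivative that blocks sodium-proton exchangers and so the engulfment of fluid by macropinocytosis. The second was kept in 0.2 mM glutamine with DMSO alone (low-glutamine vehicle), the third in 4 mM glutamine with DMSO and IL-1a, an inflammatory cytokine, at 25 pg/mL (IL-1a), and the fourth in 4 mM glutamine with DMSO alone (replete vehicle). The treatment protocol writes the EIPA dose in mM where titles write uM, and the titles are followed. The labels leave unsaid if replicates came from separate cultures, and from how many lines or animals, so every p-value measures only the spread between these libraries.

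As background, type I interferons bind the receptor made of Ifnar1 and Ifnar2, whose kinases Jak1 and Tyk2 phosphorylate Stat2. Stat2 and Irf9 are subunits of ISGF3, a complex that binds the interferon-stimulated response element in the promoters of its targets, while interferon gamma acts on the gamma-activated site. The products sense foreign RNA, block viral entry and translation, or attach the ubiquitin-like Isg15 to other proteins, and fibroblasts are a classical cell type for this response.

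Promoter sequences from RefSeq (build GRCm38.p6), each 250 bases before to 50 bases after a start site, were found by symbol for 29 of the 39 genes. The response element was searched as GAAA, any 2 bases and GAAA again, and the gamma-activated site as TTCNNNGAA, both on either strand and with overlapping matches counted. The response element letters occurred in 14 of the 29 (48.3%), against 1079 of all 27025 symbols (3.99%) and 3.44% of the 32851 windows of that length. TTCNNNGAA occurred in 9 of the 29 (31%), against 9.55% of all symbols. The members were named for their induction by interferon, so such letters describe the list, and a match is a run of letters and not a shown binding site. Dhx58, Zbp1, Usp18, Oas2, Mx1, Mx2, Ifi27, Rtp4, Parp9 and Parp14 were the symbols without a match in the table. The following 4 windows are shown because they belong to the tag Isg15, the classical effector Ifit1, and the 2 called genes with a match that moved most with EIPA, Stat2 and Bst2. Each is the stretch of 250 bases before the start site, 5′ to 3′ on the gene's own strand, with the response element matches on either strand in capitals.
Isg15 (chr4:156200819-156201068, minus strand): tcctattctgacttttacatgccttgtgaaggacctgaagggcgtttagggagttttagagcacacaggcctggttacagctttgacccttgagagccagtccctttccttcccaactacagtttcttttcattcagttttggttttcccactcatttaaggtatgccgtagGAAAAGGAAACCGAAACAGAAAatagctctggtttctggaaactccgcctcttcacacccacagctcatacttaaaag
Ifit1 (chr19:34640639-34640888, plus strand): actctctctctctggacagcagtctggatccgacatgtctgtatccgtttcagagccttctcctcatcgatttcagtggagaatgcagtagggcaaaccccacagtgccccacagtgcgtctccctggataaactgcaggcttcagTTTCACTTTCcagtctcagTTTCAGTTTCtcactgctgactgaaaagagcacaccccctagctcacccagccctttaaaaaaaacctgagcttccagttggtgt
Bst2 (chr8:71537473-71537722, minus strand): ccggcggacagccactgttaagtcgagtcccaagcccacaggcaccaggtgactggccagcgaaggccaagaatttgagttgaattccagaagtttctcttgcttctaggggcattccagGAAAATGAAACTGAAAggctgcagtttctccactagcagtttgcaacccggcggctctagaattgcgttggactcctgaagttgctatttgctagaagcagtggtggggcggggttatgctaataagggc
Stat2 (chr10:128270248-128270497, plus strand): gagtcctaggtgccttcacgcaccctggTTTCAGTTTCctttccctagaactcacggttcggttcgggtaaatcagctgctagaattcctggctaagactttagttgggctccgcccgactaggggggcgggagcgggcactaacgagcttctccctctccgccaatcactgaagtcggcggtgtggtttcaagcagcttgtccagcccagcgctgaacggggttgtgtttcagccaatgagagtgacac
Isg15 held 3 matches, neighbours overlapping by 4 bases, Bst2 held 2 that overlap likewise, Ifit1 held 2 apart from each other, and Stat2 held 1. The first match of Bst2 and the second of Ifitm3 also share bases with a TTCNNNGAA match. The other 10 genes with the response element letters were Ifih1, Ddx58, Eif2ak2, Ifit3, Oas1a, Ifitm3, Rsad2, Gbp2, Gbp3 and Gbp7. TTCNNNGAA was found in Adar, Gbp7, Oas1a, Ifitm3, Bst2, Irf1, Ifi35, Eif2ak2 and Ifit2.

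Genes were tested where they reached at least 1 TPM (length-normalised transcript share) in at least 5 libraries, which held for 12350 genes and for 33 of the 37 members. TPM keeps no sequencing depth, so the number of reads behind a value is unknown and no counting interval can be given. Fibroblast identity was carried by 7 of 8 markers past that filter, with Fap, a CAF surface protease, at no more than 0.31 TPM. Of 10 leukocyte and macrophage markers, Ptprc did not pass 0.01 TPM and 4 others were listed at 0 in all libraries. The filter was passed by 3, namely Cd14 (5.89 to 27 TPM), Cd68 (1.56 to 8.7 TPM) and Csf1r (at most 1.53 TPM). Epcam, the epithelial surface marker, reached at most 0.36 TPM. Of 6 epithelial markers 4 passed the filter, namely Krt19, Krt18, Cdh1 (at most 2.36 TPM) and Muc1 (at most 2.21 TPM). The 6 summed to between 89.1 and 399 TPM, carried by Krt19 and Krt18, and endothelial markers to between 1.90 and 10.3 TPM. The libraries of IL-1a replicates 1 and 5 and replete vehicle replicate 5 stood apart from the others at 4 mM glutamine, with Ccn1, a YAP target, at 201 to 235 TPM, and results that rest on them are also given without them.

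The 33 tested members were low to moderate transcripts, with a mean of log2(TPM + 1) of 3.67 ± 0.29 (SD, n = 5) in EIPA, 3.12 ± 0.16 in low-glutamine vehicle, 3.66 ± 0.48 in IL-1a and 3.32 ± 0.13 in replete vehicle. The libraries ran from 3.30 to 4.10 in EIPA, 2.92 to 3.35 in low-glutamine vehicle, 3.26 to 4.39 in IL-1a and 3.16 to 3.53 in replete vehicle, so each treated group overlapped its vehicle. In bulk RNA, fewer cells that express a gene and less of its RNA per cell cannot be told apart. The highest group mean belonged to EIPA for 15 members and to IL-1a for 18, and the lowest to low-glutamine vehicle for 21 and to replete vehicle for 12. Ifi27, Ifitm3 and Bst2 led in TPM, a scale that allows for transcript length, and Ifi44 and Gbp7 lay near the filter.

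**Figure D1:**
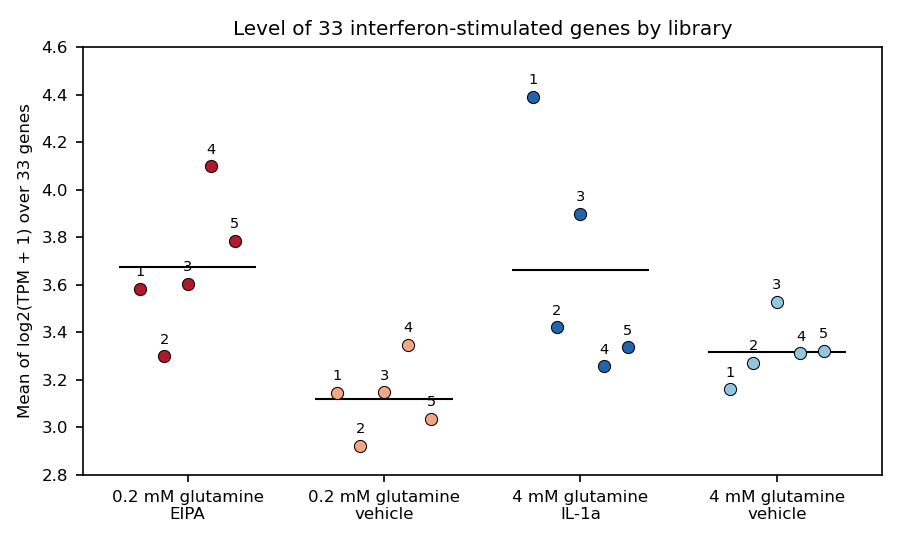
Mean of log2(TPM + 1) over the 33 tested interferon-stimulated genes in each library (points, numbered by replicate; lines, group means). The EIPA libraries lie between 3.30 and 4.10 and the low-glutamine vehicle libraries between 2.92 and 3.35, while IL-1a replicate 1 at 4.39 lies above every other library.

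Members moved together between the libraries of a group. IL-1a replicate 1 held the highest IL-1a value for 32 of the 33 (33.3% of all tested genes), EIPA replicate 4 the highest EIPA value for 29 (27.7%), and EIPA replicate 2 the lowest for 26 (19.3%). Replete vehicle replicate 3 was highest in its group for 22 members (13.6% of all tested genes) and low-glutamine vehicle replicate 2 lowest in its own for 20 (17%). The median SD of log2(TPM + 1) was 0.28 for the members against 0.12 for all tested genes in EIPA, 0.21 against 0.12 in low-glutamine vehicle, 0.50 against 0.14 in IL-1a, and 0.18 against 0.11 in replete vehicle. Members thus spread more between replicates than the median gene in all 4 groups, most of all with IL-1a.

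**Figure D2:**
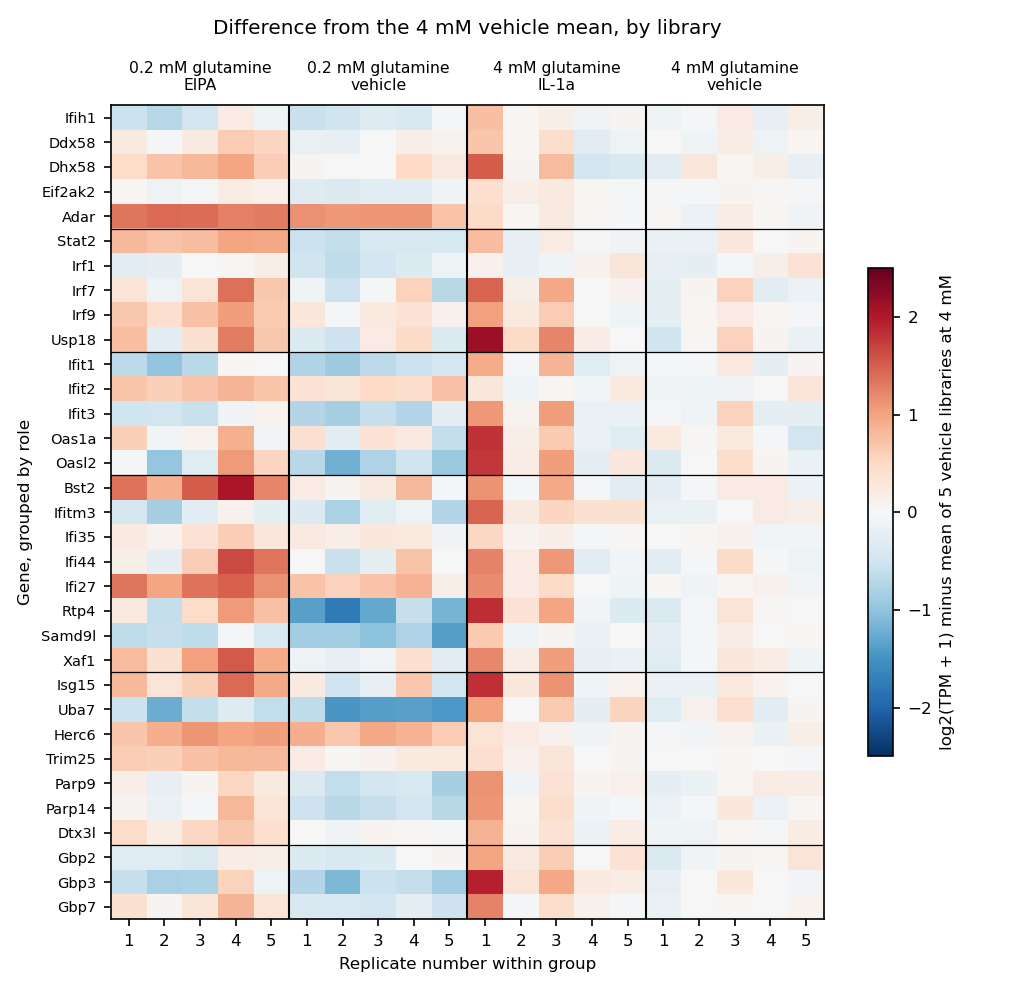
Difference of log2(TPM + 1) from each gene's mean over the 5 replete vehicle libraries, for the 33 tested members (rows, ordered by role) in each library (columns, by group and replicate). Whole columns differ within a group, with IL-1a replicate 1 high for nearly every gene and low-glutamine vehicle replicate 2 low.

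The first comparison, EIPA against its vehicle in scarce glutamine, asked how the fibroblasts responded to EIPA. Fluid uptake itself was not measured in these libraries. Of the 33 tested members 19 rose and none fell, while 14 did not pass the test (limma, Benjamini-Hochberg adjusted p under 0.05). Among all tested genes 27.4% rose and 21.1% fell, 48.5% in all, against 57.6% and 0 of the members. Risers made up 56.5% of all called genes, 49.5% under median-of-ratios scaling and 46.9% with mitochondrially encoded genes left out, while 18 members rose and 0 fell under either. The median member differed by 0.52 on the log2(TPM + 1) scale, against 0.02 for all genes, and the estimates were positive for all 33 members against 53.3% of all genes. Only Rtp4, Stat2 and Bst2 passed a 2-fold change with a call (3.15% of all genes did). The groups did not overlap for 11 members, all higher in EIPA, where 20% of all genes were higher and 14.7% lower without overlap (34.6% in either direction). Of the 26 members that reached 1 TPM in all 20 libraries, 16 rose and 0 fell. By promoter letters, 5 of 13 tested genes with the response element letters and 10 of 14 without them rose.

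Among the transcription factors and feedback genes, 3 of 5 rose. Stat2, the ISGF3 subunit that activates transcription (chr10:128270559-128292849, plus strand), was at 26.8, 25.1, 26.2, 30.6 and 30.2 TPM in EIPA replicates 1 to 5 and at 9.92, 9.54, 11.2, 11.1 and 11.01 TPM in vehicle replicates 1 to 5. Every EIPA library was above every vehicle library, and the groups lay far apart, with a log2 fold change of 1.32 ± 0.13 (SE) and a limma adjusted p of 9.22e-08. Irf9, the DNA-binding subunit of ISGF3, rose by 0.52 without overlap. Irf1, a factor induced by interferon gamma and other cytokines (chr11:53770014-53778374, plus strand), was at 31.9, 32.8, 39.2, 39.5 and 43.8 TPM in EIPA replicates 1 to 5 and at 27.3, 24.8, 27.7, 30.5 and 35.7 TPM in vehicle replicates 1 to 5. EIPA replicates 1 and 2 lay within the vehicle range, which vehicle replicate 5 topped, and the change of 0.35 ± 0.12 (adjusted p = 0.0212) lost its call without EIPA replicate 5 or vehicle replicate 2 (limma adjusted p = 0.0616 to 0.0618). Over 19 other settings its limma adjusted p ran from 9.96e-05 to 0.0618. Each EIPA library was above the vehicle library of the same number, though the labels do not state that numbers mark pairs. Irf7, the amplifier of interferon gene transcription (chr7:141262706-141266481, minus strand), was at 3.05, 1.96, 3.04, 7.48 and 4.21 TPM in EIPA replicates 1 to 5 and at 2.01, 1.27, 2.15, 3.84 and 1.02 TPM in vehicle replicates 1 to 5. Its groups overlapped, EIPA replicate 4 standing highest, and it did not pass (0.67 ± 0.30, adjusted p = 0.0686). Usp18, which removes Isg15 and dampens the receptor, likewise did not pass (0.67).

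Of 5 tested sensors of nucleic acid 2 rose. Eif2ak2, the RNA-activated kinase PKR that halts translation (chr17:78852564-78882573, minus strand), was at 28.7, 25.1, 26.9, 31.7 and 30.1 TPM in EIPA replicates 1 to 5 and at 21.9, 21.2, 22.7, 22.7 and 25.9 TPM in vehicle replicates 1 to 5. Vehicle replicate 5 reached above EIPA replicate 2, and the remaining EIPA libraries were above all vehicle libraries (0.30 ± 0.08, adjusted p = 0.00291). Adar, which edits double-stranded RNA so that it is not sensed as foreign (chr3:89715022-89753446, plus strand), was at 47.96, 50.9, 50.02, 45.5 and 46.6 TPM in EIPA replicates 1 to 5 and at 41.6, 39.8, 40.6, 40.8 and 30.9 TPM in vehicle replicates 1 to 5. All EIPA libraries were higher, by 0.32 ± 0.09 (adjusted p = 0.00768), and vehicle replicate 5 was the lowest of all 10. Ifih1 and Ddx58, the RNA sensors MDA5 and RIG-I, and Dhx58, their relative LGP2, did not pass, with estimates of 0.03, 0.35 and 0.57. For Ddx58 and Dhx58 this depended on the groups fitted (limma adjusted p = 0.0628 and 0.0785). Both passed in a fit of only the EIPA and low-glutamine vehicle libraries (limma adjusted p = 0.031 and 0.00235).

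Of the 5 tested IFIT and OAS genes, which bind viral RNA or make the messenger that activates RNase L, 2 rose. Ifit1 (chr19:34640871-34650009, plus strand) was at 2.73, 1.98, 2.7, 5.08 and 4.91 TPM in EIPA replicates 1 to 5 and at 2.5, 2.19, 2.75, 3.05 and 3.37 TPM in vehicle replicates 1 to 5. EIPA replicates 4 and 5 were above all vehicle libraries, replicate 2 below all of them, and the change did not pass (0.20 ± 0.22, adjusted p = 0.483). Ifit3 (chr19:34583531-34588731, plus strand), which shares sequence with the near-identical Ifit3b so that its level is uncertain, was at 2.37, 2.46, 2.25, 3.48 and 4.08 TPM in EIPA replicates 1 to 5 and at 1.85, 1.69, 2.2, 1.85 and 3.1 TPM in vehicle replicates 1 to 5. Its groups overlapped and it did not pass (0.32 ± 0.23, adjusted p = 0.273). Oasl2, an OAS-like protein with ubiquitin-like domains (chr5:114896936-114912234, plus strand), was at 8.68, 4.14, 7.15, 20.1 and 13.5 TPM in EIPA replicates 1 to 5 and at 5.24, 3.34, 4.85, 6.08 and 4.29 TPM in vehicle replicates 1 to 5. Apart from EIPA replicate 2 all EIPA libraries were above vehicle (0.88 ± 0.33, adjusted p = 0.0341), but the call was lost without any 1 of EIPA replicates 4 and 5 and vehicle replicates 2, 3 and 5 (limma adjusted p = 0.0524 to 0.116). Ifit2 rose by 0.24, a call lost when any 1 of 8 of the 10 libraries was left out, EIPA replicate 2 and vehicle replicate 5 being the exceptions (limma adjusted p = 0.0561 to 0.104). Oas1a, whose reads can be shared with its close copy Oas1g, did not pass (0.26).

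Other antiviral and induced proteins contributed 5 risers of 8 tested. Rtp4, a Golgi chaperone of receptors with antiviral activity (chr16:23520291-23614222, plus strand), was at 8.14, 4.06, 9.53, 15.2 and 11.8 TPM in EIPA replicates 1 to 5 and at 1.99, 1.27, 2.18, 4.15 and 2.46 TPM in vehicle replicates 1 to 5. Except for EIPA replicate 2, which lay just under vehicle replicate 4, EIPA stood above vehicle, by 1.61 ± 0.33 (adjusted p = 0.000505). Bst2, or tetherin, which holds budding virions on the cell surface (chr8:71534255-71537456, minus strand), was at 127, 91.4, 142, 203 and 116 TPM in EIPA replicates 1 to 5 and at 56.4, 51.5, 57.2, 86.9 and 48.1 TPM in vehicle replicates 1 to 5. The groups did not overlap, EIPA replicate 4 being highest of all 10 (1.15 ± 0.24, adjusted p = 0.000491). Xaf1, a partner of the apoptosis inhibitor XIAP (chr11:72301629-72313733, plus strand), was at 29.2, 21.8, 34.5, 49.7 and 32.1 TPM in EIPA replicates 1 to 5 and at 15.1, 14.3, 15.8, 22.1 and 13.6 TPM in vehicle replicates 1 to 5. Only vehicle replicate 4 exceeded an EIPA library, replicate 2 (0.98 ± 0.24, adjusted p = 0.00226). Samd9l, a growth-restraining antiviral protein (chr6:3372257-3399572, minus strand), was at 5.53, 5.72, 5.45, 8.91 and 6.63 TPM in EIPA replicates 1 to 5 and at 4.53, 4.52, 3.96, 4.91 and 2.9 TPM in vehicle replicates 1 to 5. All EIPA libraries were above all vehicle libraries (0.52 ± 0.15, adjusted p = 0.0062). Ifi27, a small mitochondrial protein and one of the members of highest level, rose by 0.66 without overlap. Ifitm3, which blocks fusion of virus in endosomes (chr7:141009586-141010770, minus strand), was at 124, 93.9, 138, 178 and 140.0 TPM in EIPA replicates 1 to 5 and at 131, 95.7, 135, 153 and 100.3 TPM in vehicle replicates 1 to 5. Its groups overlapped over most of their range and it did not pass (0.13 ± 0.19, adjusted p = 0.617), nor did Ifi35 (0.15) and Ifi44 (0.72).

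The Isg15, ubiquitin and ADP-ribose genes had the most risers, 6 of 7. Isg15 itself (chr4:156199424-156200818, minus strand) was at 41.4, 29.04, 35.2, 63.1 and 45.5 TPM in EIPA replicates 1 to 5 and at 27.1, 16.1, 19.9, 37.6 and 16.4 TPM in vehicle replicates 1 to 5. Vehicle replicate 4 lay among the EIPA libraries and the rest of vehicle below them all (0.87 ± 0.29, adjusted p = 0.0195). That call was lost without EIPA replicate 4, vehicle replicate 2 or vehicle replicate 5 (limma adjusted p = 0.0535 to 0.0596). Uba7, the enzyme that activates Isg15 for conjugation, rose by 0.59 at a mean of 1.80 ± 0.60 TPM (SD, n = 5) against 0.87 ± 0.51, a call lost without any 1 of 8 of the 10 libraries, EIPA replicate 2 and vehicle replicate 1 being the exceptions (limma adjusted p = 0.0536 to 0.0827). Trim25, a ubiquitin ligase that acts on RIG-I, rose by 0.56, Parp9 by 0.69, its binding partner Dtx3l by 0.46 and the ADP-ribosyl transferase Parp14 by 0.79, all 4 without overlap. Parp9 and Dtx3l overlap on opposite strands of chromosome 16, and reads from the shared stretch cannot be told apart unless strand was used. Herc6, the Isg15 ligase of the mouse, did not pass (0.13). Of the guanylate-binding proteins, GTPases that attack pathogen vacuoles and share sequence with one another, Gbp7 rose by 0.79 without overlap. Gbp2 (chr3:142620602-142638008, plus strand) was at 4.21, 4.23, 4.01, 6.32 and 6.1 TPM in EIPA replicates 1 to 5 and at 4.03, 3.88, 4.04, 5.33 and 5.76 TPM in vehicle replicates 1 to 5. Its groups overlapped and it did not pass (0.08 ± 0.17, adjusted p = 0.704), nor did Gbp3 (0.42).

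**Figure D3:**
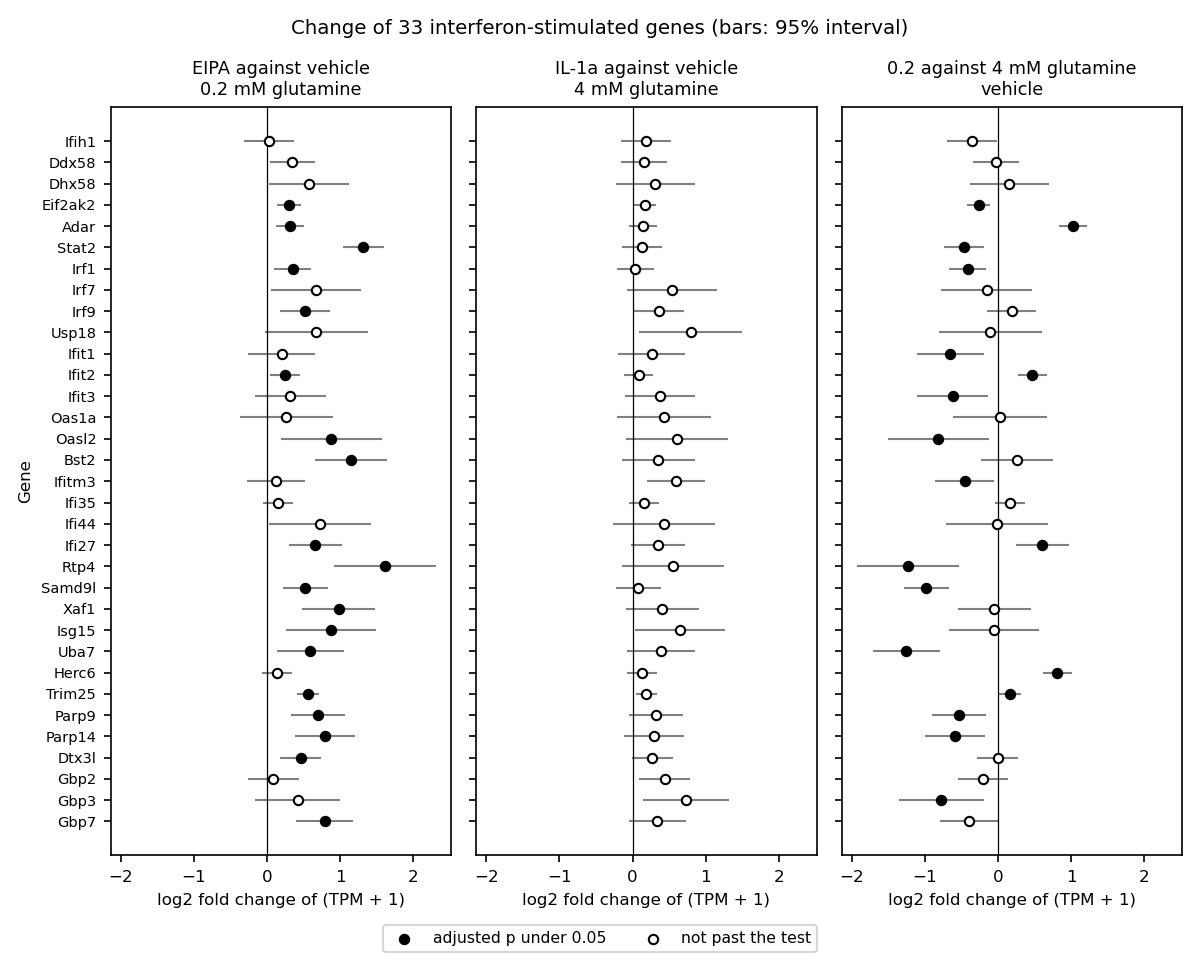
Log2 fold change of TPM + 1 with its 95% interval for the 33 tested members in 3 comparisons (filled, adjusted p under 0.05 by limma; open, not past the test). The EIPA panel holds 19 filled points, all right of 0, the IL-1a panel none, and the glutamine panel 5 right and 13 left of 0.

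EIPA libraries agreed to unequal degrees. In replicates 1 to 5, 20, 12, 21, 33 and 29 of the 33 members lay above the highest vehicle library, or 60.6, 36.4, 63.6, 100 and 87.9%, against 33.7 to 36.3% of all genes. Replicate 2, at 36.4%, was near the share of all genes in that library (36.2%). It alone held members below the lowest vehicle library, 3 of 33 (9.09%, against 29.9% of all genes in that library). Without EIPA replicate 2, 23 members rose, Ddx58, Irf7, Ifi44 and Usp18 joining (limma adjusted p = 0.0244 to 0.0414), while Irf7 and Ifi44 also passed without vehicle replicate 4. Leaving out 1 library at a time gave 14 to 23 risers and no member that fell. The mitochondrially encoded part of all TPM moved with the same contrast, at 5.69 ± 0.63% (SD, n = 5) in EIPA and 8.87 ± 0.28% in vehicle. Leukocyte and macrophage markers summed to 22.3 to 25.2 TPM in EIPA and 7.85 to 10.8 TPM in vehicle, carried by Cd14 and Cd68, with Ptprc, Adgre1, Cd3e and Tyrobp at or near 0. Their part in the result was not tested. The plasmacytoid dendritic cell markers summed to 116 to 226 TPM against 75.6 to 112 TPM, a higher sum carried by Bst2, which is itself a member. Tcf4, another of these markers, was lower in EIPA (21.29 to 23.45 against 23.5 to 26.81 TPM), and Tlr7 overlapped (0.61 to 1.19 against 0.58 to 1.35 TPM). Siglech, a defining marker, was at 0 in all libraries. Fibroblast markers summed to 1889.8 to 2194 TPM in EIPA and 3203 to 3789.8 TPM in vehicle, a sum carried by Vim, Col1a1 and Col1a2. Pdgfra, at 13 to 18.96 against 5.2 to 7.16 TPM, and Pdgfrb, at 13.86 to 17.76 against 10.36 to 12.48 TPM, were higher in EIPA without overlap. Epithelial markers summed to 89.1 to 120.1 TPM in EIPA and 133 to 206 TPM in vehicle, carried by Krt19, with Epcam at no more than 0.16 TPM in these 10 libraries. Krt18 went the other way, at 9.52 to 11.65 against 4.02 to 5.59 TPM, without overlap. The part of these markers in the result was not tested either.

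The second comparison, IL-1a against its vehicle at 4 mM glutamine, asked how replete fibroblasts responded to this cytokine. No member passed the test (limma), and 8 of 33 had an unadjusted p under 0.05, as did 744 of 12350 genes (6.02%). No other setting run gave a call, including limma without a trend and limma with a replicate block. Among all genes 0.259% rose and 0.0243% fell. The smallest adjusted p of a member was 0.425, for Ifitm3. All 33 estimates were positive, against 53.7% of all genes, with a median of 0.34 against 0.01. That median was 0.12 without IL-1a replicate 1, and 0.16 without the 3 libraries set apart, of which IL-1a replicate 1 is one.

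The libraries of this group differed from one another. In IL-1a replicates 1 to 5, 31, 9, 27, 2 and 4 of the 33 members lay above the highest vehicle library (93.9, 27.3, 81.8, 6.06 and 12.1%, against 32.1, 12.6, 18.8, 13.7 and 24.8% of all genes). Below the lowest lay 0, 1, 0, 5 and 5 (0, 3.03, 0, 15.2 and 15.2%, against 20.4, 23.9, 22.1, 16.3 and 14.9% of all genes). Replicates 1 and 3 were thus high for most members, replicates 4 and 5 lay under or near the share of all genes, and IL-1a replicate 5, which had low Ccn1 like replicate 1, did not share its high members. Leukocyte and macrophage markers summed to 14.9 to 30.6 TPM with IL-1a and 15.2 to 19.9 TPM in vehicle, and the mitochondrially encoded part was 10.0 ± 0.51% and 10.4 ± 1.17% (SD, n = 5).

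**Figure D4:**
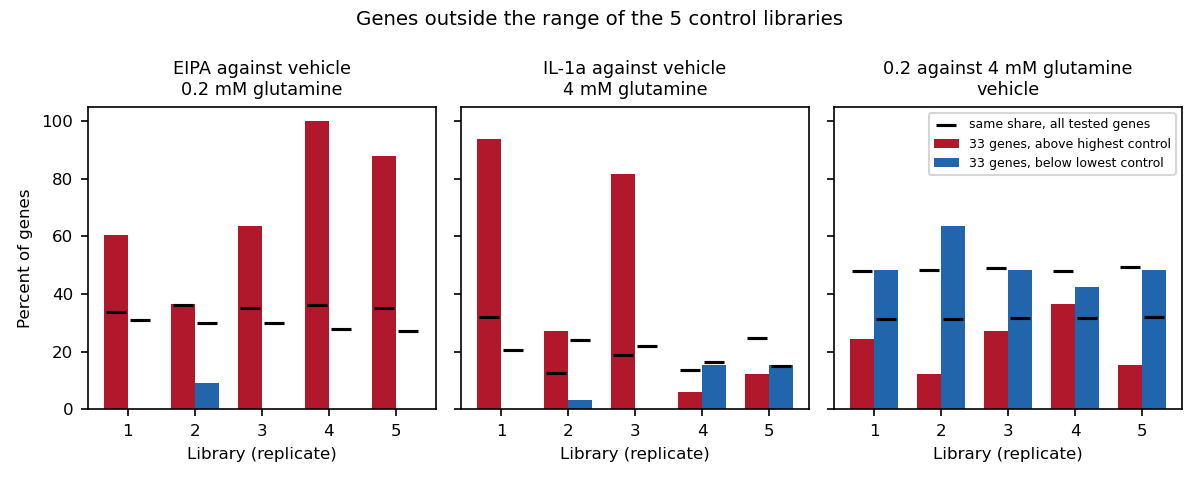
Share of the 33 members above the highest (red bars) and below the lowest (blue bars) of the 5 control libraries, in percent, for each treated or low-glutamine library, with the same shares of all tested genes as black dashes. EIPA replicate 4 reaches 100% and IL-1a replicate 1 reaches 93.9%, while IL-1a replicate 4 stands at 6.06%.

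Isg15 was at 84.9, 28.4, 51.6, 21.3 and 24.4 TPM in IL-1a replicates 1 to 5 and at 20.4, 20.5, 27.4, 24.7 and 23.02 TPM in vehicle replicates 1 to 5. IL-1a replicates 1 and 3 exceeded all vehicle libraries by a wide margin, replicate 2 by little, and replicates 4 and 5 lay inside the vehicle range (0.65 ± 0.29, adjusted p = 0.78). Ifit1 was at 10.2, 4.72, 9.6, 3.78 and 4.41 TPM in IL-1a replicates 1 to 5 and at 4.74, 4.67, 5.98, 4.04 and 5.18 TPM in vehicle replicates 1 to 5. Ifit3 was at 9.13, 4.07, 8.79, 3.2 and 3.26 TPM in IL-1a replicates 1 to 5 and at 3.69, 3.48, 6.11, 3 and 3.1 TPM in vehicle replicates 1 to 5. Both showed the same split, replicates 1 and 3 high and the others within the range of vehicle or below it (0.26 and 0.38). Ifitm3 was at 458, 195, 241, 218 and 218 TPM in IL-1a replicates 1 to 5 and at 148, 148, 165, 191 and 186 TPM in vehicle replicates 1 to 5. It was the only member whose groups did not overlap (0.777% of all genes were higher without overlap, and 1.38% apart in either direction), with replicate 1 far above the rest (0.60 ± 0.19). Gbp2 was at 11.7, 6.47, 8.81, 5.48 and 7.18 TPM in IL-1a replicates 1 to 5 and at 4.01, 5.01, 5.76, 5.62 and 7.02 TPM in vehicle replicates 1 to 5. Replicates 1 and 3 exceeded all vehicle libraries and replicate 5 did so by little (0.44 ± 0.17, adjusted p = 0.598).

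Irf7 was at 7.95, 2.59, 5.35, 2.27 and 2.49 TPM in IL-1a replicates 1 to 5 and at 1.75, 2.42, 3.86, 1.72 and 1.92 TPM in vehicle replicates 1 to 5. Replicates 1 and 3 were again the high ones. Stat2 was at 26.2, 12.9, 17.3, 14.6 and 13.9 TPM in IL-1a replicates 1 to 5 and at 13.3, 13.2, 18.2, 14.7 and 15.7 TPM in vehicle replicates 1 to 5. Only replicate 1 exceeded all vehicle libraries, and the estimate was 0.13 ± 0.13. Irf1 was at 41.7, 33.7, 35.9, 42.1 and 48.02 TPM in IL-1a replicates 1 to 5 and at 33.7, 32.6, 37.3, 43.3 and 49.97 TPM in vehicle replicates 1 to 5. Here the groups covered nearly the same range and the estimate was 0.04 ± 0.12, the smallest of the 33. Eif2ak2 was at 37.2, 31.1, 32.8, 28.8 and 26.6 TPM in IL-1a replicates 1 to 5 and at 26.9, 27.1, 28.8, 28.1 and 27.2 TPM in vehicle replicates 1 to 5. Replicates 1, 2 and 3 exceeded all vehicle libraries. Adar was at 25.8, 18.97, 21.7, 18.9 and 17.8 TPM in IL-1a replicates 1 to 5 and at 18.6, 16.4, 21.1, 18.7 and 17.3 TPM in vehicle replicates 1 to 5. Samd9l was at 14.8, 8.19, 9.51, 7.99 and 9.06 TPM in IL-1a replicates 1 to 5 and at 7.66, 8.91, 10.5, 9.15 and 9.4 TPM in vehicle replicates 1 to 5. Replicate 1 lay above every vehicle library for both genes, and replicate 3 just above them for Adar.

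Rtp4 was at 26.8, 8.83, 14.3, 6.3 and 5.05 TPM in IL-1a replicates 1 to 5 and at 5.01, 6.51, 8.79, 6.89 and 6.74 TPM in vehicle replicates 1 to 5. Oasl2 was at 33.1, 10.4, 19.8, 7.5 and 11.1 TPM in IL-1a replicates 1 to 5 and at 6.85, 8.98, 12.6, 9.58 and 7.98 TPM in vehicle replicates 1 to 5. Replicates 1 and 3 stood highest in both. Bst2 was at 107, 48.05, 95.1, 48.04 and 40.5 TPM in IL-1a replicates 1 to 5 and at 41.2, 47.9, 56.8, 56.04 and 44.1 TPM in vehicle replicates 1 to 5. Xaf1 was at 39.04, 19.02, 35.02, 14.1 and 14.6 TPM in IL-1a replicates 1 to 5 and at 13.2, 15.8, 20.3, 18.8 and 15.3 TPM in vehicle replicates 1 to 5. In these again replicates 1 and 3 exceeded every vehicle library, replicates 4 and 5 did not, and their estimates were 0.35 and 0.41. The largest estimates of the list were those of Usp18 (0.80 ± 0.34) and Gbp3 (0.73 ± 0.28), neither of which passed. The other members, namely Ifih1, Ddx58, Dhx58, Irf9, Ifit2, Oas1a, Ifi35, Ifi44, Ifi27, Uba7, Herc6, Trim25, Parp9, Parp14, Dtx3l and Gbp7, had estimates of 0.08 to 0.43.

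**Figure D5:**
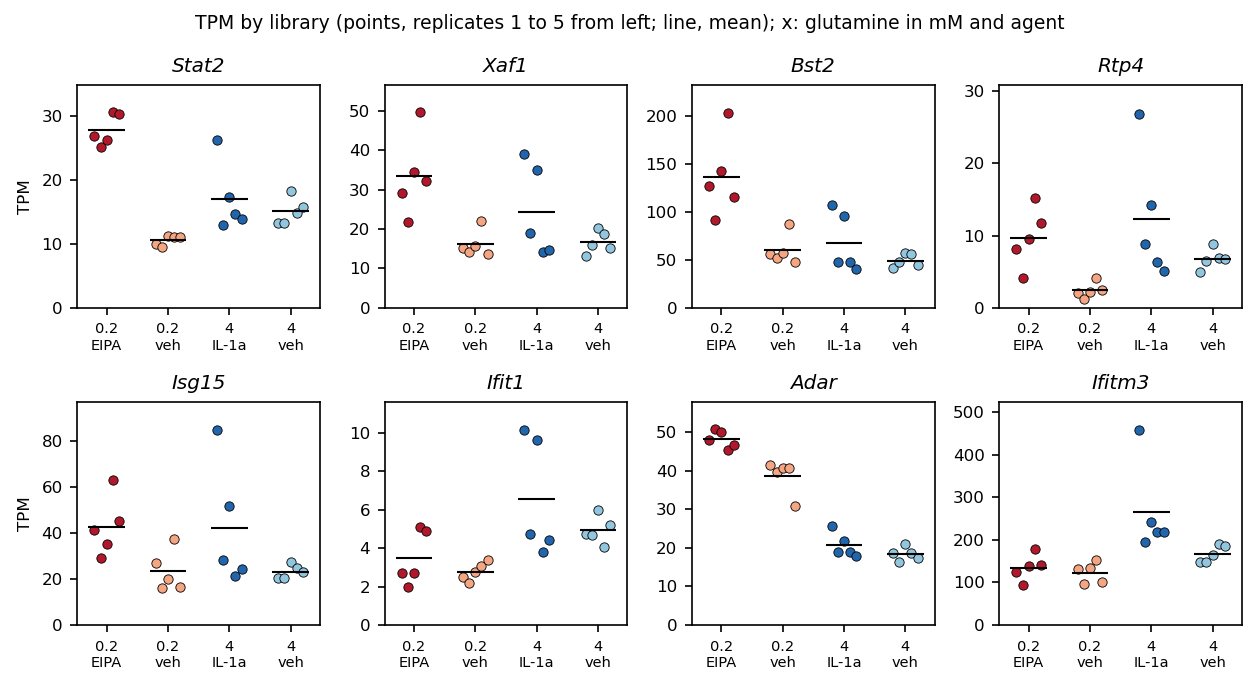
TPM of 8 members in each library (points, replicates from left; lines, group means). Stat2 separates EIPA from low-glutamine vehicle while Ifit1 does not, and IL-1a replicate 1 is the highest of its group in 8 of 8 panels.

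Low-glutamine vehicle was compared with replete vehicle to see what glutamine itself changed. Of the 33 tested members 13 fell and 5 rose at 0.2 mM, while 15 did not pass. Among all genes 27.9% fell and 45.4% rose, 73.3% in all, against 39.4% and 15.2% of the members. The median gene was higher by 0.14 at 0.2 mM, and the log2 difference of the median member was -0.16, so changes are also given relative to the median gene. Under median-of-ratios scaling 15 members fell and 4 rose, and the share of risers among all called genes went from 61.9% to 49.7%. The groups did not overlap for 3 members higher and 11 lower (37.2% and 22.7% of all genes, 59.9% in either direction). The low-glutamine vehicle libraries are the controls of the EIPA comparison too, so the values of that comparison are not independent of these. In low-glutamine replicates 1 to 5, 16, 21, 16, 14 and 16 of the 33 members lay below the lowest replete library and 8, 4, 9, 12 and 5 above the highest. Of all genes 31.2 to 31.9% lay below and 48.1 to 49.4% above. Without the 3 libraries set apart, of which replete vehicle replicate 5 is one, 14 members fell and 4 rose. Other measures moved with this contrast too. Leukocyte and macrophage markers summed to 7.85 to 10.8 TPM against 15.2 to 19.9 TPM. That sum was carried by Cd14 (5.89 to 8.14 against 12.29 to 16.18 TPM). Csf1r was lower too, and Cd68 overlapped (1.95 to 2.62 against 1.56 to 2.67 TPM). Fibroblast markers summed to 3203 to 3789.8 TPM against 8365 to 9135 TPM. Endothelial markers summed to 6.33 to 10.3 TPM against 2.90 to 4.04 TPM (carried by Kdr, with Tie1 at 0 in all libraries and Cdh5 at or near 0). The mitochondrially encoded part of all TPM was 8.87 ± 0.28% (SD, n = 5) against 10.4 ± 1.17%. The part of these measures in the result was not tested.

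The libraries behind these changes are those already listed for vehicle. Rtp4, at 1.27 to 4.15 TPM at 0.2 mM and 5.01 to 8.79 TPM at 4 mM, fell by 1.23 on the log2 scale (-1.36 relative to the median gene, adjusted p = 0.00253), without overlap. Samd9l, at 2.90 to 4.91 TPM against 7.66 to 10.5 TPM, fell by 0.98 (-1.12 relative, adjusted p = 4.8e-06), also without overlap. Oasl2, at 3.34 to 6.08 TPM against 6.85 to 12.6 TPM, fell by 0.82 (-0.96 relative, adjusted p = 0.0315). For each of these 3 antiviral effectors every low-glutamine library lay below every replete one. The Oasl2 call was lost without low-glutamine replicate 2 or 5 or replete replicate 3 or 4 (limma adjusted p = 0.0537 to 0.0795). Uba7 fell by 1.25, at 0.87 ± 0.51 TPM (SD, n = 5) against 3.42 ± 0.93 TPM, the lowest estimate of the list. Stat2 fell by 0.47 and Irf1 by 0.41, and in the effector families Ifit1 fell by 0.65, Ifit3 by 0.62, Gbp3 by 0.77, Parp14 by 0.59, Parp9 by 0.54, Ifitm3 by 0.46 and Eif2ak2 by 0.26. Of these, Ifit3 lost its call without replete replicate 3 (limma adjusted p = 0.0762). Ifitm3 lost it without any 1 of low-glutamine replicates 2 and 5 and replete replicates 3, 4 and 5 (limma adjusted p = 0.0539 to 0.101).

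Adar went the other way. It was at 30.9 to 41.6 TPM at 0.2 mM against 16.4 to 21.1 TPM at 4 mM, without overlap, and rose by 1.03 ± 0.09 (0.89 relative to the median gene, limma adjusted p = 2.85e-09). Herc6, at 8.17 to 10.5 TPM against 4.27 to 5.54 TPM, rose by 0.81 (0.67 relative). Ifi27 rose by 0.61, also without overlap, and Ifit2 by 0.46, while its neighbours Ifit1 and Ifit3 fell. Trim25 rose by 0.16, which is 0.03 relative to the median gene, and lost its call under 14 of 20 other settings, among them median-of-ratios scaling (0.02) and the loss of any of 8 of the 10 libraries, low-glutamine replicates 2 and 3 being the exceptions (limma adjusted p = 0.0533 to 0.1). The 15 that did not pass were Ifih1, Ddx58, Dhx58, Irf7, Irf9, Usp18, Oas1a, Bst2, Ifi35, Ifi44, Xaf1, Isg15, Dtx3l, Gbp2 and Gbp7, with estimates of -0.40 to 0.26. Ifih1 passed without low-glutamine replicate 5 or replete replicate 4 (limma adjusted p = 0.0275 and 0.0458) and Ifi35 without low-glutamine replicate 5 (0.0458). Ifih1 also passed under median-of-ratios scaling, without mitochondrially encoded genes and in a fit of only the groups compared. Gbp7, lower without overlap, passed with a pseudocount of 0.1, under median-of-ratios scaling, in that fit and without the 3 libraries set apart (limma adjusted p = 0.00208 to 0.0275). Isg15, the ubiquitin-like tag, differed by -0.05 ± 0.29 (adjusted p = 0.886).

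The 3 comparisons can be read side by side for the members that moved most, with the low-glutamine vehicle shared by the first and the third. Rtp4 differed by 1.61 with EIPA, 0.55 with IL-1a and -1.23 at low glutamine, Stat2 by 1.32, 0.13 and -0.47, and Bst2 by 1.15, 0.35 and 0.26. Whether the EIPA response at 0.2 mM glutamine differed from the IL-1a response at 4 mM was tested as a difference of the 2 changes. Agent and glutamine level differ together in it and cannot be told apart. Stat2 (1.19 ± 0.19, adjusted p = 8.62e-05) and Trim25 (0.37 ± 0.10, adjusted p = 0.00938) responded more to EIPA, none responded less, and 31 members did not pass, where 16.3% of all genes were higher and 12.6% lower. With mitochondrially encoded genes left out, the share of higher calls among all called genes went from 56.5% to 46.5%. The count of 2 members depends on the libraries kept. Without IL-1a replicate 1 it was 9, with Bst2, Gbp7, Ifi27, Parp14, Parp9, Rtp4 and Samd9l passing (limma adjusted p = 0.0086 to 0.0309), and it was 4 without EIPA replicate 2 and 5 without the 3 libraries set apart. Bst2 also passed without EIPA replicate 2, low-glutamine vehicle replicate 4 or IL-1a replicate 3 (limma adjusted p = 0.0201 to 0.0489 with IL-1a replicate 1 included), and Rtp4 without EIPA replicate 2 (0.038).

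Transcripts of the interferons themselves were at or near 0. Of 21 ligand genes none passed the filter, the highest value was 0.55 TPM for Ifnz, and Ifnb1 and Ifng were listed at 0 in all 20 libraries. The receptors were expressed, with Ifnar1 at 40.7 to 57.7 TPM and Ifnar2 at 46.1 to 79.1 TPM over the 20 libraries. Ifnar2 rose with IL-1a (0.38 ± 0.07, adjusted p = 0.00705) and at low glutamine (0.34, or 0.20 relative to the median gene) and fell with EIPA (-0.18). Ifnar1 and Ifngr2 passed in none of the 3, and Ifngr1 rose with EIPA (0.28) and at low glutamine, there by 0.17 with overlapping groups and by 0.03 relative to the median gene.

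Of 46 other tested genes of the pathway (receptors, kinases, regulators, sensing adaptors, other interferon regulatory factors, nucleases and antigen presentation genes), 21 rose and 6 fell with EIPA, where 27.4% of all genes rose and 21.1% fell. With IL-1a 1 rose and 0 fell (0.259% and 0.0243% of all genes), and at low glutamine 13 rose and 17 fell (45.4% and 27.9% of all genes). With EIPA the largest were Tapbp, which loads peptide on MHC class I (1.31), Ube2l6 (1.08), grouped here with regulators but known as the conjugating enzyme for Isg15, Psmb8 of the immunoproteasome (1.06) and the MHC light chain B2m (0.98). Of 7 tested antigen presentation genes 5 rose with EIPA, against the 27.4% of all genes. At low glutamine the largest were Socs3, a feedback inhibitor (-1.23, or -1.37 relative to the median gene), Trim65, a ligase that acts on MDA5 (-0.97, or -1.11), Tapbp (-0.87, or -1.01) and the DNA sensor Cgas, which was higher (0.85, or 0.72).

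The remaining 4 of the 37 members lay under the filter. Zbp1, a sensor of Z-form nucleic acid, reached 1 TPM in 2 libraries, IL-1a replicates 1 and 3 (1.90 and 1.29 TPM). Oas2 did so in 1 library, IL-1a replicate 1 (1.26 TPM), and Rsad2, or viperin, and its genomic neighbour Cmpk2 in none, their highest values being 0.96 and 0.92 TPM, both in IL-1a replicate 1. No test was made of these.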

How the data were processed

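RNA of 20 libraries was measured by polyA-selected RNA-seq with paired reads, per the labels' protocols. The deposited values are TPM, length-normalised transcript shares from the authors, made with RSEM on mm10 per the submitters' processing notes, and the aligner and versions are not given in the sources consulted. Values were analysed as log2(TPM + 1), which understates the changes of low genes, with limma 3.58.1 in R 4.3.3. A single model of the 4 groups over 20 libraries with an intensity trend was fitted to the genes that reached 1 TPM in 5 or more libraries. Benjamini-Hochberg adjustment ran over all genes tested in a comparison, and genes were called under 0.05. Rose, fell and changed are used of called genes, fold changes carry SE and levels SD. The fit was tested on simulated data. The depth per library is unknown.

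The members, the pathway and marker lists and the tests were chosen with earlier results of these data known. Values in all 20 libraries are given for a panel of 10 (Isg15, Ifit1, Ifit3, Irf7, Irf1, Stat2, Bst2, Ifitm3, Gbp2, Eif2ak2) and for the 4 called members with the largest change in each comparison whose higher group averaged 5 TPM or more. All called members are named, and of other pathway genes up to 4 per comparison with the largest change plus Ifnar1, Ifnar2, Ifngr1, Ifngr2 and Ifnb1, while 1 further gene under this rule is not reported here. Other names are given by their counts or were singled out after their values were seen.

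Gene positions are from GENCODE M21 (GRCm38), which held the IDs of all 37 members with values. Alternatives were a pseudocount of 0.1, no filter, a mean of at least 5 TPM, median-of-ratios and quantile scaling, mitochondrially encoded genes left out, only the groups compared, limma without trend, a replicate block, leaving out 3 libraries, and leaving out each library. Replicate numbers were checked as a pairing and not taken as one, since same-numbered libraries did not all deviate together. Some of them did, and the labels do not state if a number marks a shared batch.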

Additional observations from a re-analysis of the deposited data

Results flagged for a closer look

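Each tested member was checked in each group of 5 libraries for a library far from the other 4, by the gap to its nearest neighbour as a share of the group's range. Of 132 such groups 8 held one (6.06%), and chance alone gives about 1 in 20. IL-1a replicate 1 was far above its group for Ifih1 at 9.24 TPM (others 4.67 to 5.68), for Ifitm3 at 458.16 TPM (others 195 to 241) and for Samd9l at 14.77 TPM (others 7.99 to 9.51). Low-glutamine vehicle replicate 5 was far below its group for Adar at 30.87 TPM (others 39.8 to 41.6) and for Ifi35 at 22.72 TPM (others 27.5 to 29.4). Low-glutamine vehicle replicate 1 was far above its group for Uba7 at 1.78 TPM (others 0.59 to 0.69). In replete vehicle, Ifit2 was high in replicate 5 at 21.45 TPM (others 15.8 to 16.8) and Ifit3 in replicate 3 at 6.11 TPM (others 3 to 3.69).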

How the results depend on the processing

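Each member count was refitted under the alternatives named in the methods. No member changed direction while called. With EIPA, 16 members rose without a filter, 16 at a mean of at least 5 TPM (21 members tested), 18 under either scaling or with mitochondrially encoded genes left out and 21 in a fit of those 2 groups alone. Leaving out 1 library gave 14 to 23 risers with EIPA, 2 to 9 members that responded more to EIPA than to IL-1a, 4 to 5 risers and 10 to 13 members that fell at low glutamine, and 0 in either direction with IL-1a. At a mean of at least 5 TPM 8 members fell at low glutamine in place of 13, with fewer members tested. The count of 2 members that responded more to EIPA than to IL-1a became 5 without the 3 libraries set apart and 4 with a replicate block, where Bst2 and Irf1 joined (limma adjusted p = 0.00852 for Irf1, against 0.182 without the block), and the cause was not tested. With the block, 19 members rose with EIPA and 4 rose and 13 fell at low glutamine. The numbers were not taken as a pairing, as same-numbered deviations did not all correlate over 0.1. They correlated at 0.0621 (replicate 2) to 0.322 with EIPA, at -0.281 (replicate 1) to 0.601 with IL-1a and at 0.0495 to 0.167 at low glutamine, and 4, 2 and 4 of 5 libraries correlated best with their own number. In a fit of the 4 mM groups alone, 18 genes of all tested rose and 1 fell with IL-1a, in place of 32 and 3. A fit of only the groups compared does not exist for the difference of responses, which uses all 4. The 3 libraries set apart are in neither group of the EIPA comparison, which was not refitted without them. They do enter the shared estimate of spread behind its p-values, which the fit of those 2 groups alone (21 risers) leaves out. TPM holds no depth, so members of a few TPM, such as Ifi44, Gbp7 and Uba7, may rest on few reads.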

Other observations

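Among the other genes of the interferon pathway, IL-1a replicate 1 held the highest value of its group for 25 of 46 tested genes and the lowest for 6. Of all tested genes it held the highest value for 33.3% and the lowest for 20.3%. For the members it held the highest value for 32 of 33 and the lowest for 0.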
